A study of Mus musculus with 12 samples.

Results

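RNA of *Rroid2* KO and WT short-lived effector cells (SLEC) was compared on day 14 of infection, from 4 of the 12 libraries of the study and every gene that passed a filter on low counts, 14460 of 55421. The cells were OT-I cells, CD8 T cells with a transgenic receptor for an ovalbumin peptide, transferred into host mice that were then infected with *Listeria monocytogenes* carrying ovalbumin (LM-OVA), and were sorted from the hosts' spleens. The genotype is that of the transferred cells; the strain of the hosts, and so which lymphocytes of their own they had, is not given. The groups used here are WT SLEC on day 14 (2 libraries) and KO SLEC on day 14 (2 libraries). SLEC of both genotypes on day 7 and memory precursor effector cells (MPEC) of both genotypes on day 14, at 2 libraries a group, entered the same fit and served for comparison. All groups shared the OT-I receptor, the infection and the tissue, and differed in *Rroid2* genotype, day and sorted subset. The labels give neither the allele or its origin, the sex or age of the animals, nor the sorting gates. Whether the replicates of a group came from separate animals is not stated, so p-values measure only the spread between libraries.

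After an acute infection, CD8 T cells divide into SLEC, which kill and mostly die, and MPEC, which give rise to long-lived memory cells. SLEC carry the lectin-like receptor KLRG1 and little of the IL-7 receptor, while MPEC show the reverse. The name Rroid is in use for a regulatory region of *Id2*, whose protein holds back the E proteins, transcription factors that bind E-box motifs. *Rroid2* is no symbol of the table, and whether it is lost in KO could therefore not be checked.

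The libraries held 12427019 and 13740911 counts in WT and 9507830 and 7603551 in KO, so that 3 counts correspond to 0.19 to 0.412 CPM (counts scaled to a common library size with trimmed mean of M-values factors). Such limits cover counting error only. The sorted subset was clear from its defining genes. *Klrg1* was at 152 and 132 CPM in the WT and 154 and 157 CPM in the KO libraries, against 1.33 to 3.74 CPM in the 4 MPEC libraries. *Cd8a* was at 928 and 856 CPM in WT and 909 and 1124 CPM in KO. *Cd4* had 13, 8, 5 and 1 counts in the same order. WT replicate 2 stood apart in the number of genes detected, 25372 against 18660 in WT replicate 1 and 17187 and 16633 in KO.

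Both WT libraries carried RNA of B cells, of antigen-presenting cells and, in replicate 1, of neutrophils. Summed over the 20 B cell genes, levels were 383 CPM in WT replicate 1 and 1639 CPM in WT replicate 2, against 40.2 and 25.8 CPM in KO. The 8 libraries of the other groups lay between 16.4 and 218 CPM. MHC class II genes, which present antigen to CD4 T cells, summed to 447 and 1748 CPM in WT and to 30.05 and 12.5 CPM in KO, and immunoglobulin constant genes to 354 and 700.4 CPM in WT and 44.4 and 21.4 CPM in KO. WT thus exceeded KO in every library for these lists, and WT replicate 2 was the higher of the WT pair.

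Other lists followed another order. Neutrophil genes summed to 75.7 CPM in WT replicate 1 and 9.11 CPM in WT replicate 2, against 3.74 and 0.687 CPM in KO. Of these, *S100a9*, a calcium-binding protein of granulocytes, had 341 and 22 counts in WT and 0 and 1 in KO. Genes of monocytes and macrophages summed to 163 and 245 CPM in WT and 82.9 and 44.4 CPM in KO. The sums of plasma cell genes (158 and 164 CPM in WT, 142 and 159 CPM in KO) and of NK cell genes (1565 and 1459 CPM, 1465 and 1253 CPM) lay close together in the 4 libraries, though single members did not. Genes of dendritic cells summed to 326 and 322 CPM in WT and 134 and 152 CPM in KO, against 168 to 574 CPM in the other libraries. *Itgax*, which effector CD8 T cells also express, made up 283 and 187 CPM of this in WT and 132 and 150.2 CPM in KO, and *Wdfy4* 37.8 and 132 CPM in WT and 1.01 and 1.65 CPM in KO. Most of the plasma cell sum comes from *Prdm1* and *Xbp1*, which effector T cells also express. *Jchain* of that list had 190 and 42 counts in WT and 0 and 1 in KO. Most of the NK cell sum comes from *Gzma* (990 and 987 CPM in WT, 806 and 774.5 CPM in KO). *Klra8* was at 9.57 and 5.25 CPM in WT and 1.11 and 2.89 CPM in KO. *Ncr1*, which defines NK cells, had 2 and 2 counts in WT and 0 and 0 in KO. By edgeR's test at an unadjusted p under 0.05, 2 of 5 tested plasma cell genes and 2 of 6 tested NK cell genes were lower, 0 higher. In bulk RNA, fewer cells of a type and less RNA per cell cannot be told apart. The plot of marker sums per library shows these levels beside the other 8 libraries.

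**Figure D1:**
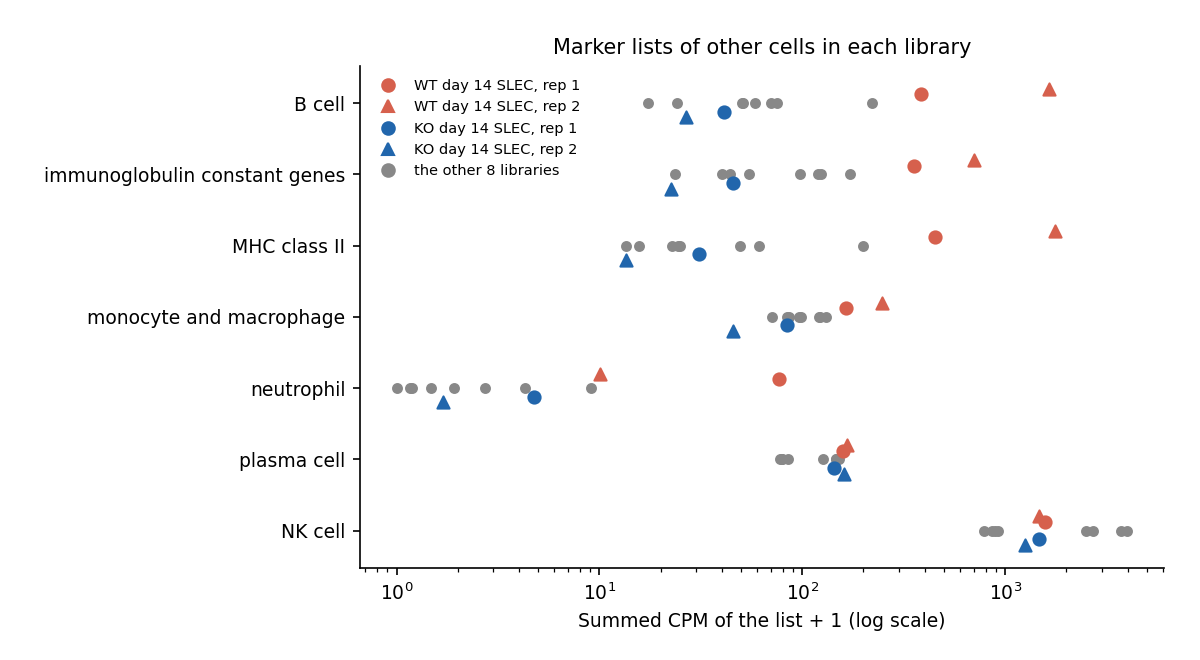
Summed CPM (plus 1, log scale) of the marker lists of 7 other cell types in each library: WT SLEC on day 14 in red, KO SLEC on day 14 in blue, the other 8 libraries in grey. The B cell, immunoglobulin and MHC class II sums of both WT libraries exceed all the other libraries, with 1639 CPM of B cell genes in WT replicate 2 against 25.8 CPM in KO replicate 2, while the plasma cell and NK cell sums of the 4 libraries lie together.

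Between KO and WT, 79 genes (0.546% of those tested) passed edgeR's quasi-likelihood test at a Benjamini-Hochberg adjusted p under 0.05. Of these, 10 (0.0692%) were higher and 69 (0.477%) lower in KO. At an unadjusted p under 0.05, 750 genes (5.19%) were higher and 1054 (7.29%) lower. The 2 genotypes did not overlap in any of the 79, a separation also seen in 3164 genes (21.9%) upward and 3719 (25.7%) downward. To separate T cell genes from those of other cells, the called genes were split by their level in the 8 libraries outside SLEC on day 14. There, 21 of the 79 averaged 5 CPM or more, and 14 belonged to a list of other cells or were immunoglobulin segments. The rest averaged under 5 CPM, 42 of them lower and 2 higher in KO, which is 0.839% and 0.04% of the 5005 tested genes of that class. In the first class 8 genes rose and 13 fell, which is 0.0856% and 0.139% of its 9342 tested genes. In the class of other cells 14 of 113 genes (12.4%) fell and none rose. In this class and in that under 5 CPM, the direction is no result where a gene passed the filter through the WT libraries alone. Such a gene could hardly rise. *Iglc1* of the first of these, for example, had 1 count in KO and at most 0.906 CPM outside. *Cd40* of the other had 0 counts in KO and at most 0.831 CPM outside.

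The 10 genes higher in KO included a transporter, an adaptor, a cytokine receptor, a Rac regulator, a calcium pump and a subunit of the respiratory chain. *Mfsd14b*, a member of the major facilitator family of transporters (chr13:65064663-65112975), was at 79.0 and 77.6 CPM in the WT libraries and at 182 and 220.2 CPM in KO. The KO libraries were 2.56-fold above WT and the WT libraries nearly coincided (log2 change 1.36 ± 0.17 SE, adjusted p = 0.0011). *Sntb1*, which encodes a syntrophin, an adaptor of the dystrophin complex (chr15:55636388-55906949), was at 17.7 and 20.1 CPM in WT and 41.8 and 44.1 CPM in KO. Both KO libraries were high, 2.26-fold above WT (1.18 ± 0.21, adjusted p = 0.022). In WT SLEC on day 7 *Sntb1* was at 24.2 and 17.9 CPM and in MPEC at 60.3 to 70.7 CPM, so the KO level on day 14 lay between those of day 7 SLEC and MPEC.

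*Il7r*, which encodes the alpha chain of the IL-7 receptor (chr15:9505788-9530176), was at 28.6 and 25.6 CPM in WT and at 71.7 and 42.7 CPM in KO. KO replicate 1 was the higher, and the groups did not overlap (1.10 ± 0.24, adjusted p = 0.0496). Without any 1 of these 4 libraries the adjusted p was 0.067 to 0.38. Both KO levels were far below the 760 to 1037 CPM of the MPEC libraries and above the 14.1 to 22.9 CPM of SLEC on day 7. SLEC are usually sorted as low for the protein of this gene, and since the gates are not given a sorting difference and a KO effect cannot be told apart.

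*Arhgap15*, an inhibitor of the GTPase Rac (chr2:43748824-44395953), was at 118 and 115 CPM in WT and 188 and 230 CPM in KO, 1.79-fold higher (0.84 ± 0.18, adjusted p = 0.044). *Atp2b1*, a plasma membrane pump that expels calcium (chr10:98914406-99026143), was at 322 and 333 CPM in WT and 499 and 552 CPM in KO, 1.60-fold higher (0.68 ± 0.13, adjusted p = 0.031). The genotypes did not overlap in either gene, and the WT libraries were the tighter pair. *Arhgap15* kept its call in 2 of the 12 fits that left out 1 library and *Atp2b1* in 6. The mitochondrial gene *mt-Nd6*, a subunit of complex I (mitochondrial genome, 13552 to 14070), was at 87.5 and 89.5 CPM in WT and 158 and 139 CPM in KO (0.75 ± 0.16, adjusted p = 0.0496). The other 4 risers, *Gm37589*, *Gm47664*, *Gm45407* and *Gm48904*, are predicted genes outside the naming rule, named because they are few and after their values were seen. *Gm37589* was at 38.3 and 30.0 CPM in WT and 76.7 and 118 CPM in KO, and *Gm45407* at 2.06 and 2.40 CPM in WT and 9.71 and 9.48 CPM in KO.

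**Figure D2:**
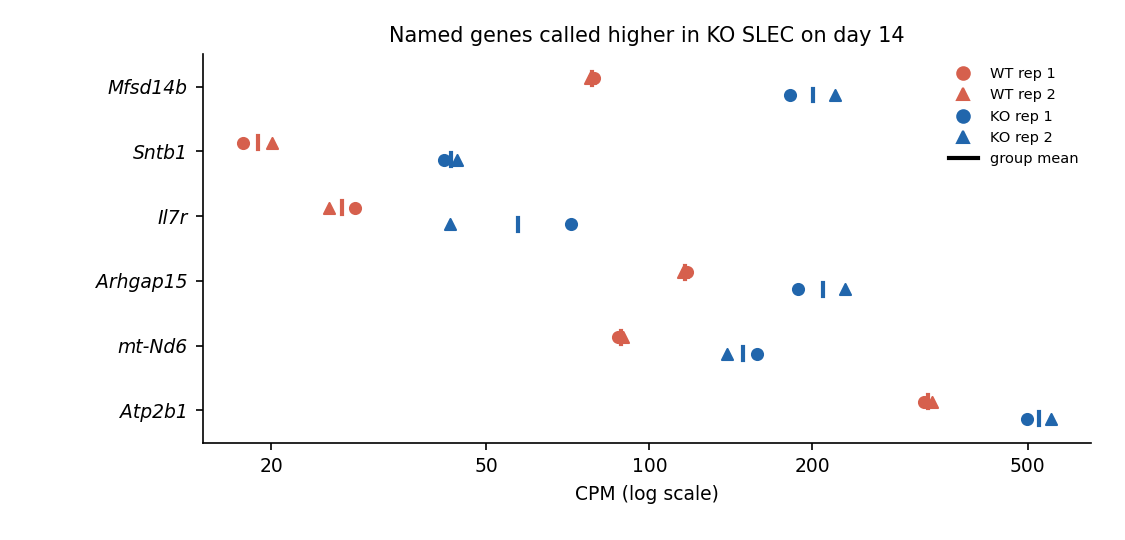
CPM (log scale) of the 6 named genes higher in KO SLEC on day 14, with each library as a point and each group's mean as a bar; WT in red, KO in blue, circles replicate 1 and triangles replicate 2. For every gene both KO libraries lie above both WT libraries, from 77.6 and 79.0 against 182 and 220.2 CPM for *Mfsd14b* to 25.6 and 28.6 against 42.7 and 71.7 CPM for *Il7r*.

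The 13 genes that fell and averaged 5 CPM or more elsewhere had a median log2 change of -1.14. *Ctse* and *Ptprv*, both on chromosome 1, had the smallest adjusted p. *Ctse*, the aspartic protease cathepsin E (chr1:131638306-131675505), was at 99.5 and 95.2 CPM in WT and 17.1 and 14.6 CPM in KO. The libraries of each genotype nearly coincided, and the fall was 6.10-fold (-2.61 ± 0.19, adjusted p = 8.9e-07). *Ptprv*, which encodes a receptor-type phosphatase and is classed as a polymorphic pseudogene (chr1:135108497-135132594), was at 32.5 and 45.6 CPM in WT and 4.45 and 2.89 CPM in KO. The WT libraries were 10.4-fold above KO (-3.37 ± 0.35, adjusted p = 1.3e-04).

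*Gramd1a*, which moves cholesterol from the plasma membrane to the endoplasmic reticulum, was at 329 and 341 CPM in WT and 172 and 131 CPM in KO (-1.14 ± 0.20, adjusted p = 0.022). *Acap1*, which acts on the GTPase Arf6 in endosomal recycling, was at 258 and 309 CPM in WT and at 173 and 172 CPM in KO (-0.72 ± 0.15, adjusted p = 0.040). *Als2cl*, a relative of alsin, which acts on Rab5 at endosomes, was at 38.05 and 26.01 CPM in WT and 8.40 and 14.2 CPM in KO (-1.54 ± 0.30, adjusted p = 0.031). In each the lower WT library exceeded the higher KO library. *Acap1* had the smallest fall of the 13.

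*Ppm1j*, a serine/threonine phosphatase, was at 54.5 and 47.3 CPM in WT and 23.5 and 24.3 CPM in KO (-1.09 ± 0.20, adjusted p = 0.022). *Map4k2*, a kinase upstream of JNK (chr19:6341135-6355615), was at 173 and 218 CPM in WT and 103 and 113 CPM in KO (-0.86 ± 0.18, adjusted p = 0.040). For these and the genes above, replicate 2 of WT had between 0.684 and 1.40 times the CPM of replicate 1, near the median of 0.988 over all tested genes. *Plcg2*, a phospholipase of B cell and myeloid receptor signalling, was instead at 41.1 and 76.6 CPM in WT, and at 16.6 and 24.05 CPM in KO (-1.56 ± 0.32, adjusted p = 0.044). *St6gal1*, a sialyltransferase that B cells express strongly, was at 5.74 and 17.9 CPM in WT and 0.202 and 0.275 CPM in KO (-5.63 ± 1.06, adjusted p = 0.023). In these 2 genes WT replicate 2 was 1.86 and 3.12 times replicate 1, the direction of the B cell list, whose ratio was 4.28. *St6gal1* was also at 10.3 to 21.8 CPM in the MPEC libraries of both genotypes and at most 0.768 CPM in SLEC on day 7. The part of the B cell RNA in these differences was not tested.

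*Ccnl1*, a cyclin of pre-mRNA splicing, was at 214 and 232 CPM in WT and 125 and 116 CPM in KO (-0.89 ± 0.19, adjusted p = 0.044). *Snapc4*, a subunit of the complex that starts small nuclear RNA transcription, was at 54.3 and 59.5 CPM in WT and 29.6 and 33.5 CPM in KO (-0.86 ± 0.18, adjusted p = 0.045). *Slc25a37*, the importer of iron into mitochondria, was at 30.8 and 37.6 CPM in WT and 17.0 and 14.4 CPM in KO (-1.11 ± 0.24, adjusted p = 0.043). WT exceeded KO in every library of these 3 genes. *H2-T10*, a non-classical MHC class I gene annotated as a polymorphic pseudogene, was at 28.4 and 36.8 CPM in WT and 14.1 and 15.3 CPM in KO (-1.16 ± 0.26, adjusted p = 0.0496). Its reads may be shared with near-identical class I genes, so its value is uncertain.

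**Figure D3:**
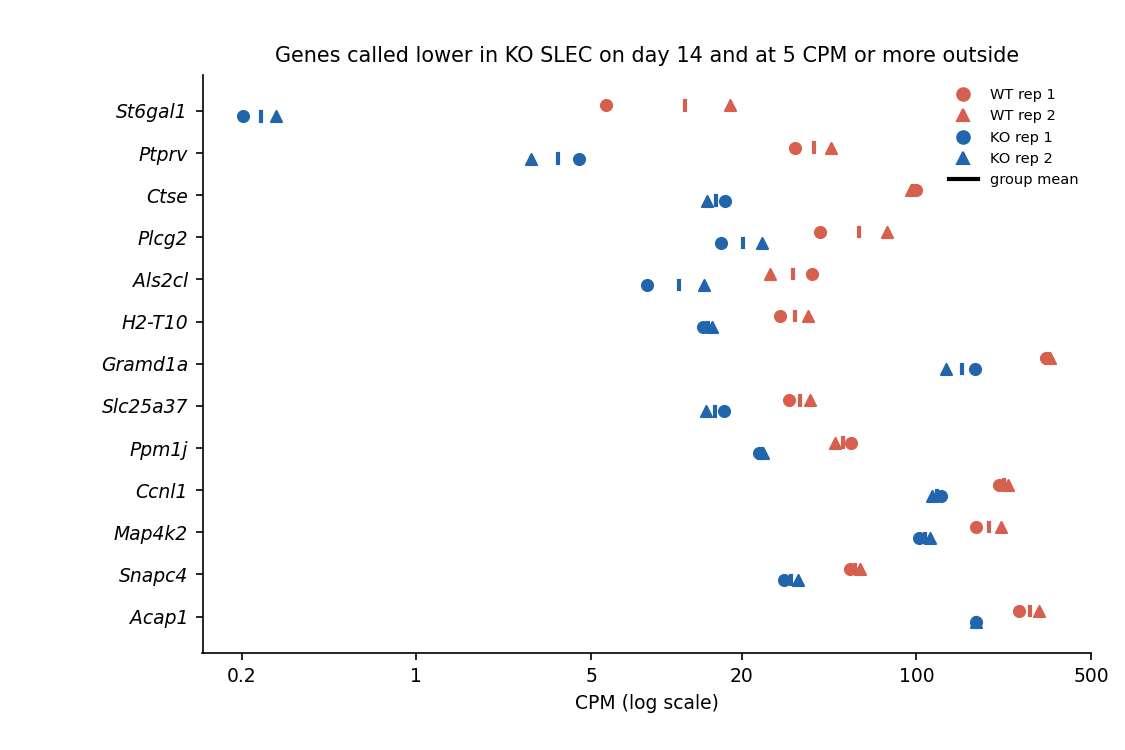
CPM (log scale) of the 13 genes that fell in KO and averaged 5 CPM or more in the 8 other libraries, with each library as a point and each group's mean as a bar; WT in red, KO in blue, circles replicate 1 and triangles replicate 2. In every gene both KO libraries lie below both WT libraries, and WT replicate 2 lies well above WT replicate 1 in *St6gal1* (17.9 against 5.74 CPM) and *Plcg2* (76.6 against 41.1 CPM).

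How many of these calls held depended on single libraries. Of the 21 genes at 5 CPM or more outside, those that kept the call numbered 2 without KO replicate 2 (*Ctse* and *Ptprv*), 4 without KO replicate 1, 4 without WT replicate 2 and 12 without WT replicate 1. Leaving out a library of another group left 21 genes (either WT SLEC library of day 7), 18 (either WT MPEC library), 12 (either KO SLEC library of day 7) or 8 (either KO MPEC library). Adjusting p over the genes at 5 CPM or more outside alone (also added once the data had been seen), *Ctse*, *Ptprv*, *Mfsd14b* and *Sntb1* were called. The B cell level largely followed genotype here (383 and 1639 CPM in WT, 40.2 and 25.8 CPM in KO). A term for it is therefore poorly told apart from genotype. With a term for each library's B cell level in the fit, *Ctse* alone of the 79 was called (-2.82 ± 0.36, adjusted p = 0.0040), and the standard errors of the others grew. *Ptprv* was then at -2.73 ± 0.62, *Als2cl* at -2.27 ± 0.53, *Sntb1* at 0.96 ± 0.46, *Il7r* at 1.00 ± 0.51, *Gramd1a* at -1.0002 ± 0.42, *Ppm1j* at -0.99 ± 0.41, *Atp2b1* at 0.60 ± 0.29 and *St6gal1* at -4.70 ± 1.81 (log2 changes). *Mfsd14b* was at 0.77 ± 0.35, *Map4k2* at -0.31 ± 0.35, *Arhgap15* at 0.24 ± 0.36, *Acap1* at -0.17 ± 0.28 and *Plcg2* at -0.14 ± 0.54, all smaller than without it.

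Since *Id2* encodes an inhibitor of E proteins, the 250 bases before the transcription start were searched on both strands for the E-box letters CACCTG and CAGCTG, for the FOXO letters GTAAACA, as FOXO factors act on *Il7r*, and for the ETS letters CCGGAAG. The windows are RefSeq promoters of GRCm38.p6, and none of these motifs contains another. The promoters of *Mfsd14b*, *Il7r* and *Map4k2* are printed, a match, a riser without one and a faller with one. They run 5′ to 3′ on the gene's strand at chr13:65112983-65113232 (minus), chr15:9529877-9530126 (minus) and chr19:6340910-6341159 (plus), and capitals mark a match.
Mfsd14b: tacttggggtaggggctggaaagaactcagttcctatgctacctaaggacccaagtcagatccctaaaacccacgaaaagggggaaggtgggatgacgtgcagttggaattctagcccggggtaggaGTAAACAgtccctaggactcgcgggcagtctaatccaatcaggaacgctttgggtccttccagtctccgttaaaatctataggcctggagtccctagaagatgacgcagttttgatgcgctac
Il7r: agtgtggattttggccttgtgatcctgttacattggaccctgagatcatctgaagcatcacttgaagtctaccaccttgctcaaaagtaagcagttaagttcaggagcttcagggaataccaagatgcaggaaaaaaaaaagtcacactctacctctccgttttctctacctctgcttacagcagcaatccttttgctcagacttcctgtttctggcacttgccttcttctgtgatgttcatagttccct
Map4k2: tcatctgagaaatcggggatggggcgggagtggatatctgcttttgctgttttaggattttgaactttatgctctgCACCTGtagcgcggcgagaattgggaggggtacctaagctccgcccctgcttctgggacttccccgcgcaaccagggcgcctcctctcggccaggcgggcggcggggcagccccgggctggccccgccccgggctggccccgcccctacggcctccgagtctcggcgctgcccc
The *Mfsd14b* window holds the FOXO letters from 123 to 117 bases before the start, and the *Map4k2* window CACCTG from 174 to 169 bases before it. The *Il7r* window holds none of the 4 motifs. Among the 13 genes that fell and averaged 5 CPM or more outside, 8 had a window, and CACCTG occurred in 3 of them (*Map4k2*, *Plcg2* and *Ppm1j*, 37.5%) against 17.2% of all 32851 RefSeq windows. CAGCTG occurred in 1 (*Als2cl*, 12.5%, against 13%). Of the 6 named genes that rose, 4 had a window: CACCTG was in none, CAGCTG in 1 (*Arhgap15*) and GTAAACA in 1 (*Mfsd14b*, against 3.17% of all windows). CCGGAAG, found in 6.91% of all windows, was in none of these 12. Among the named genes of the other fallers, 33 had a window, with CACCTG in 9 (27.3%) and CAGCTG in 3 (9.09%). A gene was counted if any of its windows matched, while the shares of all windows count single windows. A match is a description of letters and not evidence of binding.

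The other genes that fell were 14 in the class of other cells and 42 at under 5 CPM outside. The 14 had a median log2 change of -6.16 (-5.83 with the gene at 0 counts in KO set at its bound). Their median ratio of WT replicate 2 over replicate 1 was 3.69. They were *Ebf1*, *Fcrl1*, *Fcrla*, *Fcer2a*, *Cd79b* and *Pou2af1* of the B cell list, *H2-DMb1* of MHC class II, *Iglc1*, *Iglc2* and *Iglc3* of immunoglobulin constant genes, 1 variable segment, *Csf1r* and *Mpeg1* of monocytes and macrophages, and *Cxcr5*. *Ebf1*, a transcription factor that commits cells to the B lineage, was at 13.6 and 54.7 CPM in WT and 0.304 and 0 CPM in KO. Its 1049 counts in WT stood against 3 in KO, a ratio of 204 (95% exact interval 69.7 to 992, counting error only). *Cd79b*, a chain of the B cell receptor, was at 17.96 and 61.95 CPM in WT and 2.02 and 0.275 CPM in KO (-4.97 ± 0.91, adjusted p = 0.04997, the last of the 79).

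*Cxcr5*, the chemokine receptor of follicular cells, was in the list of CD4 T cells, and B cells express it too. It was at 17.1 and 46.6 CPM in WT and at 0 and 0.275 CPM in KO, 970 counts against 2 (ratio 283, 95% exact interval 78.2 to 2342). *Csf1r*, the receptor that defines macrophages, had the reverse order within WT, 12.2 and 7.59 CPM, against 0.607 and 0.412 CPM in KO (-4.20 ± 0.69, adjusted p = 0.011). *Mpeg1*, a pore-forming protein of macrophages, was at 9.13 and 14.6 CPM in WT and 1.32 and 0 CPM in KO (-3.97 ± 0.69, adjusted p = 0.020). The WT libraries were above KO in each, and the order within WT differed between genes of different cell types.

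The 42 genes that fell, averaged under 5 CPM outside and stood in no list of other cells had a median log2 change of -4.97 (-4.95 with the 7 genes at 0 counts in KO at their bound). In 30 of them WT replicate 2 had over 2 times the CPM of replicate 1, and the median ratio was 2.81. Of these, *Ly86*, *Chst3*, *Fcrl5*, *Cd40*, *Trim30b*, *Pxdc1* and *Nfam1* had 0 counts in both KO libraries. *Ly86*, a partner of the Toll-like receptor relative RP105 on B cells and macrophages, was at 6.99 and 28.3 CPM in WT, at least 106-fold higher than a floor of 3 counts over the KO group. *Cd40*, a costimulatory receptor of antigen-presenting cells, was at 4.49 and 13.8 CPM in WT, at least 54.3-fold higher on the same floor. *Lyn*, a Src family kinase of B cells and myeloid cells, was at 25.1 and 52.2 CPM in WT and 1.52 and 1.92 CPM in KO (-4.51 ± 0.78, adjusted p = 0.040). *Ifngr2*, a chain of the interferon gamma receptor, was at 3.46 and 9.05 CPM in WT and had 1 count in KO. WT replicate 2 was the higher library in all 4 of these genes, as in the B cell list.

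*Siglecg*, an inhibitory receptor of B cells, was at 6.77 and 33.98 CPM in WT and 0.405 and 0 CPM in KO, and *Cnr2*, the peripheral cannabinoid receptor, at 7.29 and 26.3 CPM in WT and 0.506 and 0 CPM in KO. *March1*, a ubiquitin ligase that turns over MHC class II, was at 6.33 and 21.1 CPM in WT and had 2 counts in KO, a ratio of 123 (95% exact interval 33.7 to 1016). WT replicate 2 was over 3 times replicate 1 in each of these. *Rasgrp3*, *Bcar3*, *Cacna1e*, *Lmo2*, *Sdc4*, *Lynx1*, *Mtss1*, *Carmil1*, *Rnase6* and *Fgd2* shared that order, with ratios of 3.01 to 5.21. *Spi1*, the transcription factor PU.1 of myeloid and B cells, was at 4.64 and 7.02 CPM in WT and 0.405 and 0.275 CPM in KO (-4.03), and *Sirpa*, a receptor of macrophages, at 6.33 and 7.21 CPM in WT and 0.506 and 0 CPM in KO (-4.50). Here the WT replicates were closer, with ratios of 1.51 and 1.14. *Lgmn*, a lysosomal protease, *Pld4*, *Irf5*, *Marcks*, *Rassf4*, *Zc3h12c*, *Plbd1*, *Tbc1d9*, *Fam43a*, *Setbp1*, *Aldh2* and *Cbfa2t3* also fell, with log2 changes of -2.11 to -5.37 and ratios of 1.40 to 2.88. The part of RNA from B cells and myeloid cells in these differences was not tested.

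In 4 further genes of the 42 the WT replicates were closer together or replicate 1 was the higher. *Egr3*, an early response transcription factor of antigen receptor signalling (chr14:70077203-70082614), was at 10.6 and 11.6 CPM in WT and 1.42 and 0.962 CPM in KO, 9.02-fold lower (-3.17 ± 0.58, adjusted p = 0.022). The WT libraries were alike, with a ratio of 1.09, and in the other 8 libraries *Egr3* was at 0.397 to 4.46 CPM, so the WT day 14 level was the high one. *Klra9*, an inhibitory Ly49 receptor (chr6:130178675-130193112), was at 73.5 and 40.5 CPM in WT and 16.3 and 11.8 CPM in KO (-1.99 ± 0.40, adjusted p = 0.044). WT replicate 1 was the higher here, and outside SLEC on day 14 the gene reached at most 6.83 CPM. The neighbouring pseudogene *Klra13-ps*, outside the naming rule and chosen after its values were seen, was at 24.0 and 20.6 CPM in WT and 2.12 and 2.89 CPM in KO (-3.18 ± 0.44, adjusted p = 0.0036). Ly49 genes are near-identical copies whose reads may be split between them, so the value of each is uncertain. *Apoe*, an apolipoprotein abundant in macrophages, was at 10.7 and 15.5 CPM in WT and 1.21 and 2.75 CPM in KO (-2.81 ± 0.48, adjusted p = 0.020). Without WT replicate 2 the adjusted p was 0.12 for both *Egr3* and *Apoe* and 0.024 for *Klra9*, and without KO replicate 2 it was 0.45, 0.19 and 0.51 in that order.

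**Figure D4:**
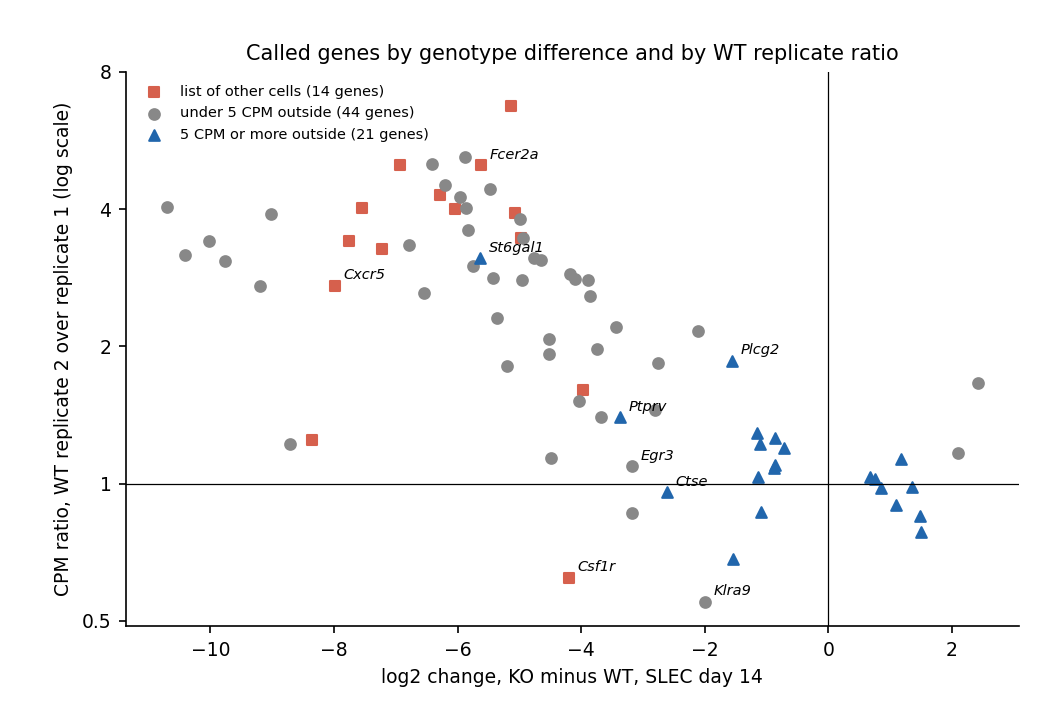
Log2 change between KO and WT in SLEC on day 14 (x axis) against the CPM ratio of WT replicate 2 over WT replicate 1 (y axis, log scale) for the 79 called genes, by class. The 21 genes at 5 CPM or more outside lie mostly near a ratio of 1, while the other genes that fell lie mostly between 2 and 6.72; fitted changes of the 8 genes at 0 counts in KO depend on the model.

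Lists of T cell biology were described by their counts and median log2 change, beside a median of -0.02 over all tested genes (-0.19 when libraries were scaled by total counts alone, a shift that reaches the smaller list medians). The lists were chosen with earlier results of these data known, and their medians are no test. Genes of the T cell receptor complex and CD8 had a median of 0.05, with 13 of 19 positive and none called. *Cd8b1*, a chain of the CD8 coreceptor, was at 988 and 823 CPM in WT and 1224 and 1419 CPM in KO (adjusted p = 0.19). *Trbc1*, a constant segment of the T cell receptor beta chain, was at 78.7 and 82.7 CPM in WT and 53.1 and 38.1 CPM in KO (-0.81 ± 0.19, adjusted p = 0.061). The groups did not overlap in either gene, with opposite directions.

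Transcription factors of effector and memory cells were not called. *Id2*, the gene after which Rroid is named, was at 350.4 and 303 CPM in WT and 335 and 223 CPM in KO, with overlapping groups (-0.22 ± 0.18, adjusted p = 0.69). Of the 14 effector factors 11 had a positive change (median 0.26). *Stat4*, which transmits IL-12 signals, was at 172 and 148 CPM in WT and 212 and 277 CPM in KO (0.61 ± 0.15, adjusted p = 0.070), and *Runx1* at 175 and 174 CPM in WT and 235 and 285 CPM in KO (0.58 ± 0.15, adjusted p = 0.079). *Irf4*, induced by T cell receptor signals and abundant in plasma cells, went the other way, with 16.4 and 35.5 CPM in WT and 7.79 and 14.4 CPM in KO (-1.28 ± 0.36, adjusted p = 0.11), and WT replicate 2 was again the higher. Of the 16 memory factors 11 were positive (median 0.17). *Lef1* was at 235 and 178 CPM in WT and 294 and 695 CPM in KO (adjusted p = 0.13), and *Tcf7* at 214 and 180.5 CPM in WT and 446 and 183 CPM in KO (adjusted p = 0.76). The KO replicates disagreed in both genes, *Lef1* being high in replicate 2 and *Tcf7* in replicate 1, as was *Eomes* (71.8 and 68.6 CPM in WT, 133 and 33.0 CPM in KO). *Zeb2*, *Tbx21*, *Gzmb*, *Bcl2*, *Cx3cr1* and *Klrg1* had log2 changes of 0.44 ± 0.22, 0.20 ± 0.18, -0.15 ± 0.31, 0.39 ± 0.25, 0.30 ± 0.18 and 0.13 ± 0.19, and none was called. *Id3* had at most 1.71 CPM in a library.

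Genes of mRNA splicing and nuclear speckles had the lowest median of the lists described, -0.52, with 18 of 20 members negative and 10 below an unadjusted p of 0.05. *Ccnl1* was the called member. *Srsf7*, a splicing factor of the SR family, was at 119.7 and 155 CPM in WT and 91.4 and 63.5 CPM in KO (-0.82 ± 0.20, adjusted p = 0.068). *Snhg1*, a host of small nucleolar RNAs, was at 13.9 and 15.8 CPM in WT and 5.87 and 3.57 CPM in KO (-1.61 ± 0.40, adjusted p = 0.071). *Tra2a* and *Srsf11*, also splicing factors, had changes of -0.59 ± 0.17 and -0.55 ± 0.16 (adjusted p = 0.12 for both). In all 5 genes both KO libraries lay below both WT libraries, as in 18 of the 20 members, against 25.7% of all genes tested. With the term for B cell RNA, *Srsf7* and *Srsf11* changed sign, at 0.024 ± 0.35 and 0.067 ± 0.30. *Ccnl1*, *Snhg1* and *Tra2a* were then at -0.65 ± 0.40, -1.23 ± 0.72 and -0.35 ± 0.36. The list's median was -0.13 in SLEC on day 7 and -0.13 in MPEC.

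The mitochondrially encoded respiratory chain had the highest median, 0.54. Of its 13 genes 7 passed the filter, all positive, with both KO libraries above both WT libraries in each. That separation was seen in 21.9% of all genes tested. *mt-Nd6* was called. *mt-Nd2* was at 404 and 388 CPM in WT and 590.3 and 636 CPM in KO (0.63 ± 0.20, adjusted p = 0.15). *mt-Nd1*, *mt-Nd4*, *mt-Nd5*, *mt-Co1* and *mt-Cytb* had changes of 0.40 to 0.56 (adjusted p 0.17 to 0.42). With the term for B cell RNA, 5 of them changed sign: *mt-Nd1* (-0.07 ± 0.37), *mt-Nd2* (-0.21 ± 0.35), *mt-Nd4* (-0.23 ± 0.42), *mt-Co1* (-0.46 ± 0.36) and *mt-Cytb* (-0.41 ± 0.35). With standard errors of that size the sign is not settled. Mitochondrial ribosomal RNA took 9.08% and 8% of the counts in WT and 10.2% and 9.56% in KO. Its part in the list's difference was not tested. The list was also positive in the other populations, with a median of 0.46 in SLEC on day 7 and 0.14 in MPEC and 7 of 7 genes positive in each. *mt-Nd6* was at 0.56 ± 0.16 on day 7 and 0.37 ± 0.16 in MPEC, called in neither. Nuclear genes of the respiratory chain had a median of 0.04, with 18 of 33 positive.

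Early response genes, which follow antigen receptor signals, had a median of -0.37, with 6 of 29 positive and *Egr3* called. *Myc*, a driver of growth, was at 6.70 and 19.05 CPM in WT and 5.87 and 5.08 CPM in KO (-1.24 ± 0.52, adjusted p = 0.35), and *Egr1* at 27.7 and 16.1 CPM in WT and 10.7 and 8.80 CPM in KO (-1.14 ± 0.56, adjusted p = 0.45). WT libraries were above KO in both, with a ratio of WT replicate 2 over replicate 1 of 0.582 for *Egr1* and 2.84 for *Myc*. Of 13 cytokines and chemokines 4 were positive (median -0.45, or -0.20 with a gene at 0 counts in KO at its bound) and none was called. *Tnf* was at 5.59 and 7.47 CPM in WT and 1.82 and 1.24 CPM in KO (-2.06 ± 0.53, adjusted p = 0.079), *Ccl3*, an attractant of inflammatory cells, at 14.7 and 11.8 CPM in WT and 4.05 and 6.05 CPM in KO (-1.42 ± 0.39, adjusted p = 0.096), and *Lta* at 0.957 and 4.75 CPM in WT and 0.202 and 0.687 CPM in KO. Macrophages and B cells also express these genes. Inhibitory receptors had a median of -0.50, with 3 of 14 positive. *Btla*, which B cells also carry, was at 11.3 and 32.8 CPM in WT and 10.6 and 4.12 CPM in KO (adjusted p = 0.20), and *Lair1* at 31.9 and 32.6 CPM in WT and 48.8 and 43.4 CPM in KO (adjusted p = 0.33). Cell cycle genes had a median of -0.45, with 5 of 30 positive and none called.

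Killer lectin-like receptors had a median of -0.43, with 5 of 14 positive and *Klra9* called. Other Ly49 genes were low in every library. *Klra10* was at 4.34 and 4.37 CPM in WT and 0.911 and 0.137 CPM in KO (adjusted p = 0.081), *Klra7* at 2.80 and 1.77 CPM in WT with 1 count in KO (adjusted p = 0.12), and *Klra3* at 17.5 and 13.5 CPM in WT and 5.06 and 8.11 CPM in KO (adjusted p = 0.31). *Klrd1*, the CD94 chain of NKG2 receptors, was at 109 and 129 CPM in WT and 86.7 and 65.7 CPM in KO (-0.64 ± 0.19, adjusted p = 0.13). All 4 were lower in both KO libraries. Integrins had a median of 0.15, with 9 of 14 positive and none called. Among them, 2 of myeloid cells that effector CD8 T cells also carry were lower in both KO libraries. *Itgam* was at 45.1 and 46.3 CPM in WT and 25.9 and 26.9 CPM in KO (-0.79 ± 0.21, adjusted p = 0.084), and *Itgax* at 283 and 187 CPM in WT and 132 and 150.2 CPM in KO (-0.74 ± 0.24, adjusted p = 0.19).

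Genes of NF-kB responses had a median of -0.20 (2 of 15 positive) and those of cytokine signalling feedback of -0.06 (7 of 14 positive), with none called in either. Ras, calcium and diacylglycerol signalling had a median of 0.22 (14 of 20 positive, *Atp2b1* called). *Nfatc1* and *Nfatc3*, transcription factors activated by calcium, had changes of 0.49 ± 0.15 and 0.44 ± 0.15 and *Dgka*, which removes diacylglycerol, -0.35 ± 0.14 (adjusted p = 0.15, 0.19 and 0.30). Among 25 cytokine receptors, median 0.03, *Il7r* rose and *Ifngr2* fell, and *Il2rg*, the chain that *Il7r* pairs with, was at 138 and 132 CPM in WT and 188 and 159 CPM in KO (0.37 ± 0.15, adjusted p = 0.30). Homing receptors had a median of 0.23 (11 of 16 positive, none called), with *S1pr1*, which guides exit from lymphoid tissue, at 369.6 and 362 CPM in WT and 458 and 554 CPM in KO (0.47 ± 0.15, adjusted p = 0.16). Of 12 iron and heme genes 3 were positive (median -0.25). *Tfrc*, the transferrin receptor, was at 15.5 and 14.4 CPM in WT and 6.98 and 8.66 CPM in KO (adjusted p = 0.13), and *Slc40a1*, the iron exporter of macrophages, at 5.52 and 5.32 CPM in WT and 0.405 and 1.51 CPM in KO (adjusted p = 0.099). MHC class I genes had a median of -0.17 (4 of 17 positive, *H2-T10* called), with *H2-Q4* at -0.72 ± 0.19 and the immunoproteasome subunit *Psmb9* at -0.56 ± 0.19 (adjusted p = 0.079 and 0.19).

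**Figure D5:**
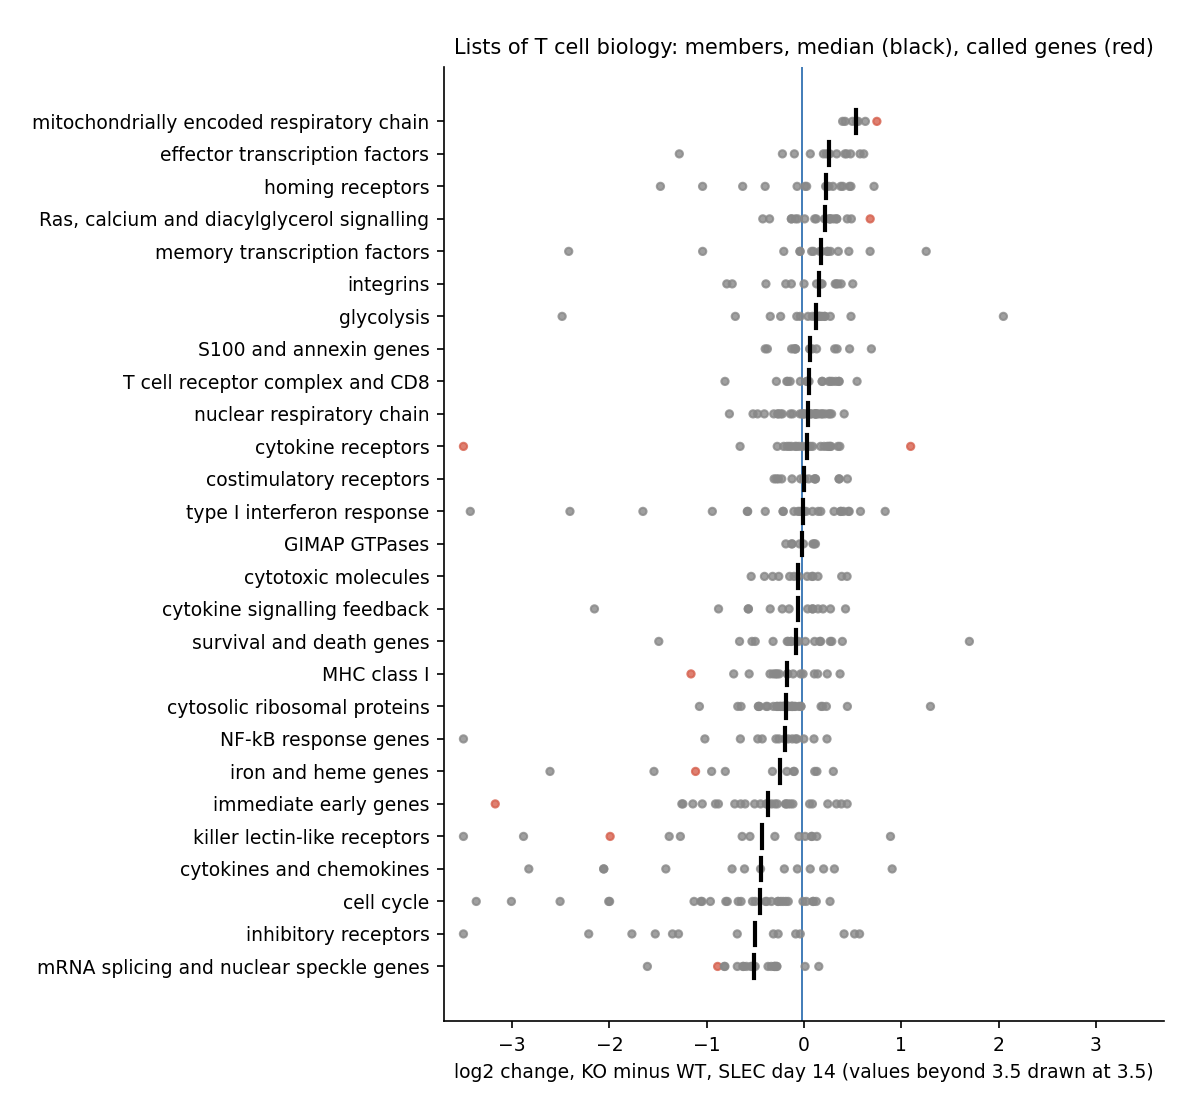
Log2 change between KO and WT in SLEC on day 14 for each tested member of the lists of T cell biology (grey points, called genes in red), with the list's median as a black bar and the median of all tested genes as a blue line; 4 members beyond 3.5 are drawn at 3.5. Medians run from -0.52 for splicing genes to 0.54 for the mitochondrially encoded respiratory chain.

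The differences also moved with transcript length. Among genes at 5 CPM or more outside, divided by exonic length into 4 sets of 2335 genes, the median log2 change was -0.08 in the shortest and 0.10 in the longest set. Between the KO replicates themselves the median log2 ratio ran from -0.13 to 0.09 in the same order. In SLEC on day 7 the change ran the other way, from 0.05 to -0.04. An offset for length, likewise added later, gave 68 called genes, of which 65 were among the 79. *Atp2b1* (exonic length 15218 bases) and *Arhgap15* (8818 bases) were then at an adjusted p of 0.054 for both, and *Il7r* at 0.033.

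Whether the KO effect on day 14 differed from that on day 7 or in MPEC was tested as a difference of differences. On day 7, 4 genes (0.0277%) were called and in MPEC 2 (0.0138%). *Ctse* fell in all 3 populations (-2.57 ± 0.18 on day 7, -2.77 ± 0.18 in MPEC). *Ptprv* fell on day 7 (-2.29 ± 0.30, adjusted p = 0.0025) and was at -1.24 ± 0.34 in MPEC, where it was not called (adjusted p = 1). *Mfsd14b* rose on day 7 (1.02 ± 0.17, adjusted p = 0.037) and was at 0.87 ± 0.18 in MPEC, not called (adjusted p = 0.55). *Als2cl* was at -1.45 ± 0.29 on day 7 (adjusted p = 0.21) and -0.72 ± 0.25 in MPEC, called in neither. The difference between days was called for 1 gene, *Ola1* (0.00692%), with 951 genes (6.58%) at an unadjusted p under 0.05, and that between SLEC and MPEC for none by edgeR or DESeq2, with 612 genes (4.23%) at an unadjusted p under 0.05. *Ola1*, an ATPase of the Obg family, was at 1639 and 1560 CPM in WT and 2488 and 3813 CPM in KO on day 14 (0.98 ± 0.29, adjusted p = 0.17). Its change on day 7 was 4.83 ± 0.34. With the term for B cell RNA or the offset for length, the difference of *Ola1* between days was not called. The same held without WT replicate 2 of SLEC on day 14, WT replicate 1 of day 7 or either KO library of day 7. *Egr3* (adjusted p = 0.25), *Sntb1* (0.35), *Ppm1j* (0.55) and *Slc25a37* (0.62), which did not reach the threshold on day 7, were not shown to differ between the days. On day 7 *Egr3* had a log2 change of 1.502 ± 0.73 and *Ppm1j* of 0.05 ± 0.18.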

How the data were processed

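The deposited table holds whole-number read counts per gene for 12 libraries (SMART-Seq Stranded Kit). Per the submitters' processing notes the authors used bcl2fastq and STAR 2.6.1a with GRCm38. The counting program, its annotation and the strandedness are unstated (not given in the sources used here). Overlapping and antisense genes therefore cannot be told apart. Positions came from GENCODE M21 (99.7% of identifiers matched), and 25 symbols turned into dates were restored.

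In R 4.3.3, edgeR 4.0.16 (filterByExpr, trimmed mean of M-values, quasi-likelihood fit, 1 coefficient per group, 6 residual degrees of freedom, two-sided, tested on simulated data) gave the tests, with Benjamini-Hochberg adjustment over all 14460 tested genes at 0.05. DESeq2 1.42.0, other scalings, filters and libraries left out were alternatives.

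All named called genes (at most 15 per class and direction with values), up to 4 others per list with the smallest p, and a fixed set of T cell genes were named; predicted genes, segments and -ps symbols were only counted, and some items are not reported here. Members and lists were chosen with earlier results of these data known.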

Additional observations from a re-analysis of the deposited data

Results flagged for a closer look

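The KO effect on *Ola1*, an ATPase gene of the Obg family, was smaller in SLEC on day 14 than on day 7 by a test of the difference itself: the log2 change on day 14 minus that on day 7 was -3.86 (edgeR's quasi-likelihood test, Benjamini-Hochberg adjusted p = 0.032). The change was 0.98 ± 0.29 on day 14 and 4.83 ± 0.34 on day 7 (SE). With the term for B cell RNA or the offset for exonic length, *Ola1* was not called for this difference. Nor was it called without WT replicate 2 of SLEC on day 14, WT replicate 1 of day 7 or either KO library of day 7. It was called with any other single library left out.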

How the results depend on the processing

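The count of 79 called genes (10 higher, 69 lower) moved with the processing. DESeq2 called 246 (71 and 175), edgeR with all genes kept 506 (123 and 383) and a stricter filter 6 (2 and 4). Of the 79, these included 55, 79 and 6 in that order. With the 4 libraries alone 82 were called (23 higher), of which only 36 were among the 79. Scaled by total counts, 86 were called, 71 of them among the 79, with 4 higher and 82 lower against 10 and 69. Total counts moved the median change of all genes to -0.19, from -0.02. The term for B cell RNA gave 4 genes, 0 higher and 4 lower, of which only 1 (*Ctse*) was among the 79. Adjustment over genes at 5 CPM or more outside left 4 of the 79, 2 in each direction. Leaving out 1 library gave 2 to 220 called genes, 0 to 34 higher and 2 to 213 lower: 220 without WT replicate 1 and 15 without WT replicate 2, 17 and 2 without KO replicate 1 or 2, 138 and 144 without a WT day 7 library, 38 without either KO day 7 library, 100 without either WT MPEC and 29 without either KO MPEC library. The lone library is then assumed to vary like the other groups. The difference between days was called for 1 gene, 28 by DESeq2, 109 without a filter and 0 with the length offset, and 0 to 91 with 1 library left out (91 without WT day 7 replicate 2, 12 without WT day 14 replicate 1). That between SLEC and MPEC was called for 0, 23 without a filter and 0 to 3 with 1 library left out (3 without WT day 14 replicate 1).

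With the replicate number as a block 130 genes were called (115 lower), 78 of the 79 among them, and 2 for the difference between days. Correlations of same-numbered deviations between groups ran from -0.13 to 0.12, so the numbers do not pair the samples.

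Of 2884 gene values under the alternatives, 2156 kept direction and side of the threshold, 637 lost the call, 60 gained it and 31 took the other sign. With the B cell term, whose cause of change was not tested, the log2 change became 0.32 for *Rasgrp3*, 0.56 for *H2-DMb1*, 0.37 for *Fcer2a*, 0.024 for *Srsf7*, 0.0092 for *Irf4*, 0.067 for *Srsf11*, 0.016 for *Psmb9*, 0.67 for *Btla*, 0.58 for *Myc*, 0.14 for *Id2*, 0.061 for *Cd4* and 0.10 for *Gzmb*. It became -0.21 for *mt-Nd2*, -0.067 for *mt-Nd1*, -0.23 for *mt-Nd4*, -0.46 for *mt-Co1*, -0.41 for *mt-Cytb*, -0.35 for *Cd8b1*, -0.043 for *Nfatc3*, -0.21 for *Rora*, -0.16 for *Zeb2*, -0.44 for *Cx3cr1*, -0.34 for *Cd8a*, -0.52 for *Tbx21*, -0.76 for *Tcf7* and -0.78 for *Klrg1*. The B cell level largely followed genotype in the 4 libraries, so its term is poorly told apart from genotype. With total counts *Klrg1* was at -0.035. With 1 library left out *Id3* ran from -6.58 to 0.24 (without WT replicate 2), *Tcf7* from -0.11 (without KO replicate 1) to 1.18, *Eomes* from -1.09 (without KO replicate 1) to 0.93 and *Id2* from -0.55 to 0.038 (without KO replicate 2). With 2 libraries a group and the KO libraries the shallowest of the 12, small changes of low genes were not detectable at this depth.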
